A study of Homo sapiens with 6 samples.

Results

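The 9 genes described are members of the JAK-STAT pathway: the kinases JAK1, JAK2, JAK3 and TYK2, the transcription factors STAT3, STAT5A and STAT5B, and the inhibitors SOCS1 and SOCS3. They were chosen by gene name, and all 9 were found among the 39012 rows of the deposited table. RNA-seq had been made from Jurkat cells, an established line from a human T cell leukaemia. The labels also describe the line as Ouabain-induced but list no ouabain among the treatments. The SCML4 group held 3 libraries from cells stably overexpressing SCML4, a Polycomb-family protein. The EV group held 3 libraries from control cells with an empty vector. Both groups had been grown with serum and then exposed for 6 h to a mixture of PMA (100 ng/ml) and ionomycin (1 µM), drugs that together mimic antigen receptor signalling, and no unstimulated library was analysed here. The labels name neither the promoter of the SCML4 construct nor whether the cells of a group were a clone or a pool, and they do not say that libraries came from separate cultures. The p-values therefore set group differences against the variation between these libraries. Part of that variation may be technical, so they may not speak for separate cultures.

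JAK kinases sit in pairs on the intracellular tails of cytokine receptors. When a cytokine joins the receptor chains, the JAKs phosphorylate one another, the receptor and the STAT proteins that dock there, and the STATs pair up and enter the nucleus to switch genes on. SOCS genes are among the genes that STATs induce, and SOCS proteins bind JAKs or receptors and shut the signal off. In T cells, JAK1 and JAK3 serve the receptors of the interleukin-2 family and act mainly through STAT5, which sustains growth and survival. JAK1 and TYK2 serve type I interferon and, with JAK2, the interleukin-6 family, which acts mainly through STAT3. Phosphorylation of these proteins is not measured by RNA-seq.

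SCML4 itself checks the labels. It had 570, 657 and 506 reads in the SCML4 libraries, against 7, 2 and 1 in the EV libraries. On the log2(FPKM + 1) scale its log2 difference was 1.88, against 7.56 in limma-voom on the reads. Its adjusted p by limma-trend was 0.0619, and over the alternatives this adjusted p ranged from 2.82e-11 to 0.982. Even this gene thus missed the threshold of 0.05 in limma-trend on log2(FPKM + 1), so missing it there does not show that a gene was unchanged. The gene length that turns its reads into FPKM is 22347 bases, against an exonic length of 7116 bases. Its mean FPKM in SCML4 libraries was 2.73. Libraries held 8953671 to 10336597 reads, and CPM below stands for reads per 1000000 reads of a library. In limma-trend on log2(CPM + 1) the adjusted p of SCML4 was 1.64e-09. T cell identity genes were present: 13 of 14 listed markers were matched in the table, and all 13 averaged over 1 CPM. Their summed level was 3654 to 3807 CPM in SCML4 libraries, against 3328 to 3579 CPM in EV libraries, without overlap. The part of this difference in the results that follow was not tested. Markers of myeloid, erythroid and natural killer cells each summed to under 1 CPM in every library, with LYZ, HBB, NCR1 and FCGR3A at 0. Markers of B cells summed to 30.7 to 33.0 CPM in SCML4 libraries, against 21.6 to 33.9 CPM in EV libraries, with CD79A the one marker averaging over 1 CPM and PAX5 and CD22 at 0. Markers of epithelial cells and fibroblasts summed to 3.13 to 3.29 CPM in SCML4 libraries, against 2.18 to 3.79 CPM in EV libraries, with KRT8 and COL1A1 averaging over 1 CPM and EPCAM, KRT18 and COL1A2 at 0. EV replicate 1 stood apart on the first principal component, at -38.6 against 0.35 to 11.6 for the other 5 libraries. Its deviations from the mean of the libraries also followed the GC content of genes most closely, with a Spearman coefficient of -0.52, against 0.05 to 0.30 elsewhere. Differences without it are given below for the members whose log2 difference it moved by over 1.5 times, and for JAK3, STAT3 and STAT5A.

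The coding sequences of STAT5A and STAT5B are near copies, so part of their reads cannot be told apart. The genes lie close together on chromosome 17 and share 88.91% of aligned coding bases. Along the longest annotated messenger RNA of each gene, 11.9% of STAT5A stretches of 50 bases and 10% of STAT5B stretches also occur, unaltered, in the other gene. The longest shared run is 429 bases. It is shown because a short read from within it fits both genes equally well. The stretch below is from the STAT5A mRNA (GENCODE 29, GRCh38, plus strand, its exons within chr17:42295777-42300281). It holds the 30 bases before the run and the first part of the run, and the 2 bases in capitals are those that differ in STAT5B.
STAT5A: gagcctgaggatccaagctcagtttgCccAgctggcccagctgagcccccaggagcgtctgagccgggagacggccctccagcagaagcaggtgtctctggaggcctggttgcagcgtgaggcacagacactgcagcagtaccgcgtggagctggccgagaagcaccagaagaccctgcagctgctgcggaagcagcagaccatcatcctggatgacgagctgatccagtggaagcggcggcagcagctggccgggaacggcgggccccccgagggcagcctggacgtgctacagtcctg
Counted from 1 at the 5′ end of this stretch, the changes from STAT5A to STAT5B are C27G and A30C, both inside the coding sequence. No source used here says how reads matching both genes were counted. Of the other members, JAK3 shares 1.52% and STAT3 1.34% of such stretches with other genes, and the remaining 5 share 0. JAK1 overlaps an exon of a gene on the opposite strand by 4 bases, and the exons of the other 8 members overlap those of no other annotated gene.

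Per base of their own exons, the STAT5 genes were the most abundant members and the SOCS genes the least. The scale used here is reads per kilobase of the gene's exonic length per 1000000 reads. STAT5A averaged 32.3 ± 5.86 and STAT5B 30.7 ± 2.37 over the 6 libraries (mean ± SD). Their ranges overlapped and STAT5A was higher in 4 of 6 libraries, so these neighbours in the order were not separated. TYK2 at 17.8 ± 1.39, JAK1 at 16.5 ± 0.862 and STAT3 at 16.1 ± 1.13 formed the next step, also with overlapping ranges. JAK3 at 3.96 ± 0.244 and JAK2 at 3.89 ± 0.308 followed, each higher in 3 of 6 libraries. SOCS1 at 2.01 ± 0.452 and SOCS3 at 0.943 ± 0.194 came last, and their ranges did not overlap each other or those of JAK2. Among 14389 tested genes with a known exonic length, whose median was 6.46, STAT5A stood at percentile 90.02, TYK2 at 78.9, JAK2 at 37.9 and SOCS3 at 17.9.

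The deposited FPKM would give another order. By FPKM, JAK2 was the highest member, at a mean of 133.8 in SCML4 libraries and 135.7 in EV libraries, although with 203 to 269 reads per library it came 7th of the 9 members by reads. The gene length that turns these reads into that FPKM is 178 bases, against an exonic length of 6170 bases for JAK2. For TYK2 it is 12248 bases against 6773, and for JAK1 2198 bases against 6317. Levels of different members are therefore compared here per own length. Comparisons of SCML4 with EV within a gene depend on this length only through the pseudocount, the filter on low values and the intensity trend of limma-trend. That trend lets the mean log2(FPKM + 1) of a gene shape its SE and p. For SOCS3, the unadjusted limma p was 0.470 with the trend and 0.227 without it.

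**Figure D1:**
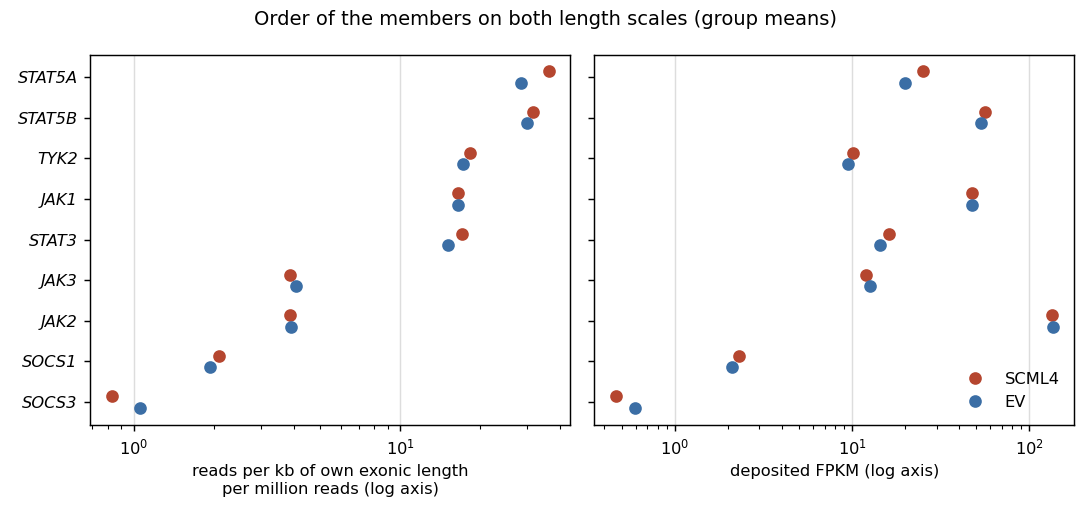
Group means of the 9 members (SCML4 and EV, 3 libraries each) on log axes: reads per kilobase of own exonic length per 1000000 reads on the left and deposited FPKM on the right. STAT5A and STAT5B lead on the left near 30, while JAK2, at 3.89 there, leads on the right at about 134.7 FPKM.

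None of the 4 JAK kinases, whose genes lie on chromosomes 1 (JAK1), 9 (JAK2) and 19 (JAK3 and TYK2), passed the test between SCML4 and EV cells. JAK1, the kinase shared by most of these receptors, stood at 95.9, 107 and 109 CPM in SCML4 libraries, against 102, 110 and 101 CPM in EV libraries. The values of the groups were interleaved, and the log2 difference was -0.01 with a 95% interval of -0.20 to 0.18, and -0.03 without EV replicate 1. JAK2, which serves receptors for growth hormone, erythropoietin and interferon gamma, had 22.5, 26.0 and 22.9 CPM in SCML4 libraries and 26.8, 22.6 and 23.0 CPM in EV libraries. Each group had 1 higher library, EV replicate 1 being the highest of all 6. Its log2 difference was -0.02, with an interval of -0.25 to 0.21, and 0.06 without EV replicate 1. These differences are on the log2(FPKM + 1) scale and come from limma-trend, fitted to 15357 genes. In bulk RNA, fewer cells with a transcript and less of it per cell cannot be told apart.

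JAK3, which pairs with the common gamma chain of the interleukin-2 receptor family, stood at 25.8, 28.4 and 24.5 CPM in SCML4 libraries, against 26.4, 28.2 and 28.4 CPM in EV libraries. The lowest values were both from SCML4 libraries, yet SCML4 replicate 2 was as high as the highest EV library. The log2 difference was -0.07, with an interval of -0.28 to 0.14. It lay between -0.13 without SCML4 replicate 2 and -0.03 without SCML4 replicate 3, and was -0.10 without EV replicate 1. TYK2, the kinase of interferon and interleukin-12 receptors, had 130, 121 and 121 CPM in SCML4 libraries and 103, 123 and 125 CPM in EV libraries. EV replicate 1 was the lowest of the 6 libraries, and the other EV libraries lay within the SCML4 range. The log2 difference of 0.09 (interval -0.15 to 0.32) became 0.0041 without EV replicate 1. The intervals of the 4 kinases leave room for differences of up to 0.32 in log2 and do not show that their levels were equal.

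STAT3 (GRCh38, chr17:42313324-42388568, minus strand) was the single member whose groups did not overlap. It stood at 147, 155 and 151 CPM in SCML4 libraries, against 131, 134 and 135 CPM in EV libraries. Every SCML4 library lay above every EV library, and the spread within each group was small, with coefficients of variation of 2.46% in SCML4 and 1.65% in EV against 2.73% that counting alone gives at its mean of 1343 reads. The means were 151 ± 3.72 CPM in SCML4 and 133 ± 2.21 CPM in EV (SD, n = 3 each). The log2 difference was 0.17 with an SE of 0.07. The unadjusted p was 0.0486 in limma-trend, and the adjusted p over all genes was 0.905, so STAT3 did not pass. With 3 libraries a group, the exact permutation test (two-sided) gave p = 0.1, which is the lowest it can reach. In 11.3% of all genes tested the groups did not overlap, in 6.02% with SCML4 higher. The share of members, 1 of 9, is close to this background. Left out in turn, no library turned its direction, and the log2 difference without EV replicate 1, the lowest EV library for STAT3, was 0.15.

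STAT5A (chr17:42287547-42311943, plus strand) had the largest log2 difference of the members on the log2(FPKM + 1) scale, with groups that overlapped through SCML4 replicate 1 and EV replicate 1. Its levels were 167, 224 and 233 CPM in SCML4 libraries, against 178, 157 and 158 CPM in EV libraries. SCML4 replicates 2 and 3 stood above all EV libraries, while SCML4 replicate 1 lay inside the EV range. The means were 208 ± 35.8 CPM in SCML4 and 164 ± 11.6 CPM in EV (SD, n = 3 each). The coefficient of variation within SCML4 was 17.2%, where counting alone gives 2.38% at its 1760 reads. The log2 difference was 0.31 with an interval of -0.02 to 0.64, an unadjusted p of 0.0605 and, by limma-trend, 0.905 after adjustment (adjusted p). Leaving out a library gave 0.46 without SCML4 replicate 1 and 0.37 without EV replicate 1, and either omission parts the groups. The difference was lowest, at 0.23, without SCML4 replicate 3. In the limma-voom fit of the reads with library weights, where 8.49% of all genes had an unadjusted p under 0.05, that of STAT5A was 0.000463 and its adjusted p of 0.169 did not pass. This was the smallest adjusted p of any member under any alternative, and the highest for STAT5A was 0.986.

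STAT5B (chr17:42199168-42276707, minus strand), the other STAT5 gene, stood at 184, 213 and 212 CPM in SCML4 libraries, against 207, 194 and 177 CPM in EV libraries. SCML4 replicate 1 was again the lowest of its group and lay among the EV values. The log2 difference was 0.07, with an interval of -0.15 to 0.30. It was 0.14 without SCML4 replicate 1, 0.12 without EV replicate 1 and 0.01 without EV replicate 3, and 0.04 without either of the other SCML4 libraries. Its adjusted p by limma-trend was 0.941. Summed over the 3 STAT members, levels were 498, 591 and 596 CPM in SCML4 libraries, against 516, 485 and 470 CPM in EV libraries, with SCML4 replicate 1 inside the EV range.

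**Figure D2:**
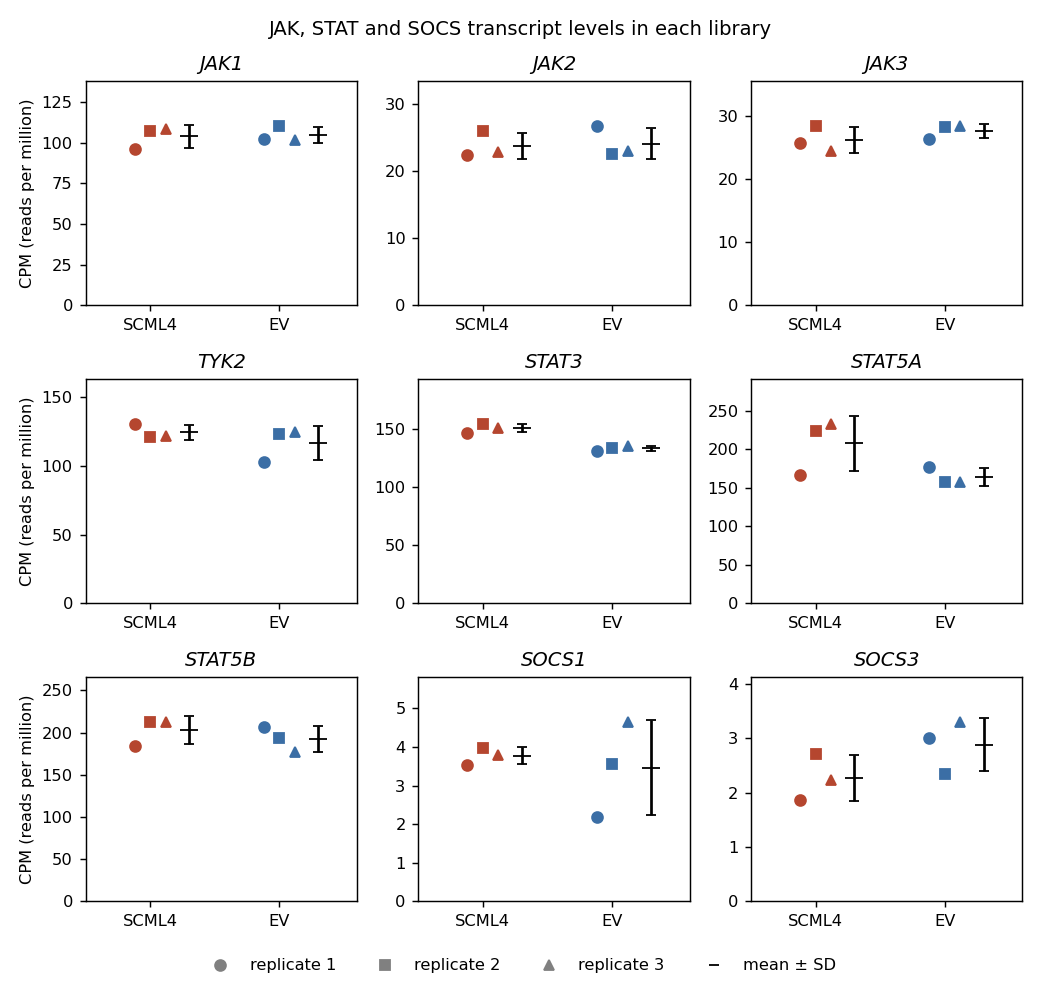
CPM of each member in each library, SCML4 left of EV in every panel, with symbols for the replicate number and a bar for the mean ± SD of 3 libraries; axes start at 0. STAT3 is the panel without overlap, at 147 to 155 CPM in SCML4 and 131 to 135 CPM in EV.

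The balance between the STAT5 genes was compared within each library, where depth cancels out. This ratio was chosen after the values had been seen. STAT5A reads per STAT5B read were 0.909, 1.05 and 1.10 in SCML4 libraries, against 0.859, 0.810 and 0.893 in EV libraries. STAT5B had more reads in all EV libraries and in SCML4 replicate 1, and STAT5A had more in SCML4 replicates 2 and 3. The groups did not overlap, but the gap between SCML4 replicate 1 (exact 95% interval 0.847 to 0.975) and EV replicate 3 (0.833 to 0.957) was within counting error. Among single genes tested, 11.3% had groups that did not overlap in CPM. How often the ratios of other gene pairs part the groups was not tested. The means were 1.02 ± 0.0987 in SCML4 and 0.854 ± 0.0418 in EV (SD, n = 3 each). The exact permutation test (two-sided) gave p = 0.1, again the lowest it can reach. With 3 libraries a group, any ratio without overlap gives this p, so it adds nothing to the lack of overlap. Intervals cover counting error only, and the shared run printed above sets a limit on how well reads of this pair were assigned.

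**Figure D3:**
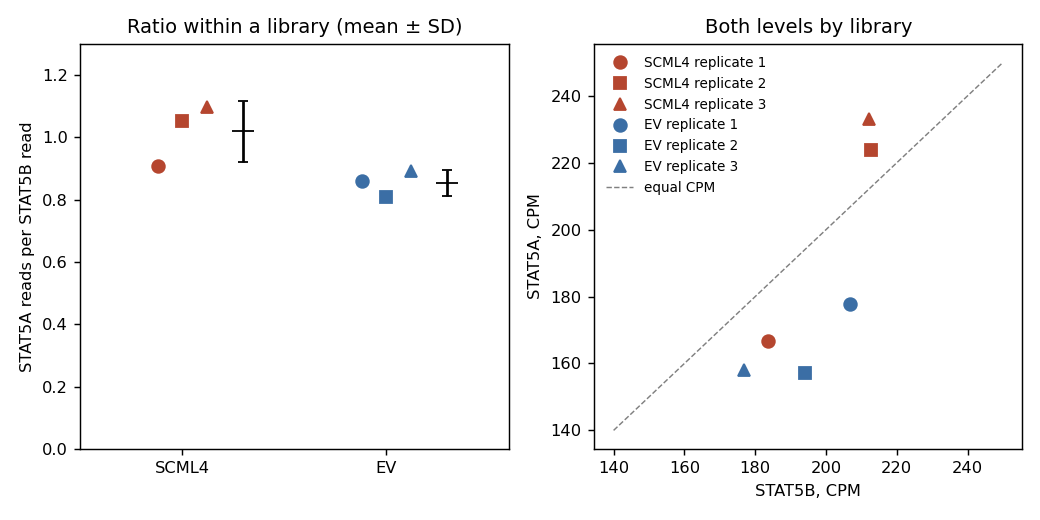
Left, STAT5A reads per STAT5B read in each library (points) with the mean ± SD of 3 libraries, SCML4 left of EV; right, STAT5A against STAT5B in CPM with a dashed line of equal level. SCML4 replicates 2 and 3 lie above the line at ratios of 1.05 and 1.10, and the other 4 libraries lie below it.

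The SOCS genes were the rarest members, with 17 to 45 reads per library. SOCS1, which inhibits JAK kinase activity directly, had 32, 41 and 34 reads in SCML4 libraries and 21, 32 and 45 reads in EV libraries. This is 3.53, 3.97 and 3.80 CPM in SCML4 libraries and 2.18, 3.57 and 4.65 CPM in EV libraries. The EV libraries spanned the SCML4 range on both sides, EV replicate 1 being lowest. The coefficient of variation was 5.84% in SCML4 and 35.7% in EV, where counting alone gives 17.1%. The log2 difference of 0.11 (interval -0.36 to 0.58) became -0.08 without EV replicate 1 and 0.28 without EV replicate 3. SOCS3, which inhibits receptors of the interleukin-6 family through their gp130 chain, had 17, 28 and 20 reads in SCML4 libraries and 29, 21 and 32 reads in EV libraries. In CPM these were 1.88, 2.71 and 2.23 in SCML4 libraries and 3.01, 2.34 and 3.31 in EV libraries, and the groups overlapped at SCML4 replicate 2 and EV replicate 2. The log2 difference was -0.12 on the log2(FPKM + 1) scale, which understates changes of low genes, and -0.34 in the limma-voom fit of the reads, with an interval of -0.99 to 0.31. At 24.5 reads on average, counting alone gives a coefficient of variation of 20.2%, against 18.4% in SCML4 and 17.1% in EV.

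**Figure D4:**
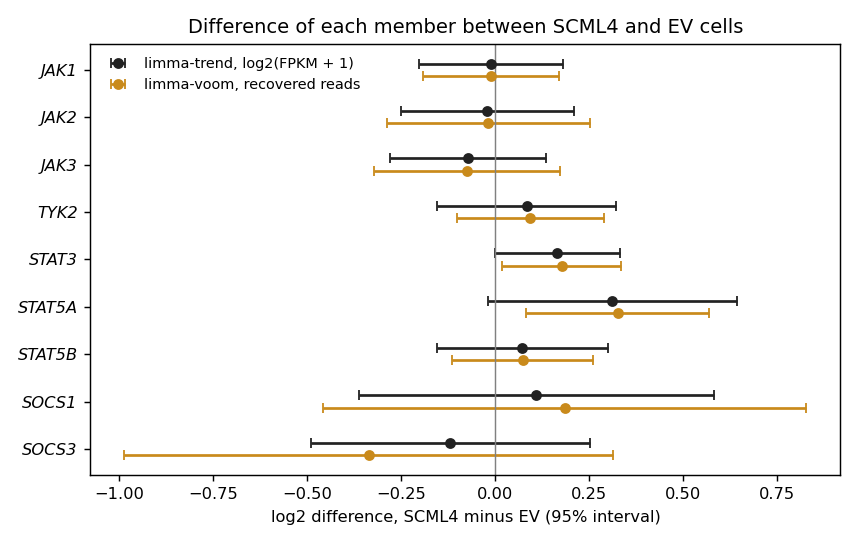
Log2 difference of each member, SCML4 minus EV, with its 95% interval, from limma-trend on log2(FPKM + 1) and from limma-voom on the recovered reads. STAT5A has the largest estimate in limma-trend, 0.31, while in limma-voom SOCS3 at -0.34 and STAT5A at 0.33 lie about as far from 0, and the intervals of SOCS1 and SOCS3 are the widest on the read scale.

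Counted together, 0 of 9 members passed an adjusted p of 0.05 in limma-trend, where 0.0% of all 15357 genes did. At an unadjusted p under 0.05 there was 1 member, STAT3, against 5.09% of all genes. In the limma-voom fit of the reads there were 2, STAT3 and STAT5A, against 5.27% of all genes, and again 0 passed after adjustment. The unadjusted limma p of STAT3 was 0.0759 under quantile normalization and 0.122 with the replicate block. In the 6 fits without 1 library it was 0.0666 to 0.144. It was lower, at 0.00935, with GC content and length corrected for (adjusted p 0.799). With library weights it was 0.0263 in limma-trend (adjusted p 0.549) and 0.0128 in limma-voom (adjusted p 0.433). The unadjusted limma p of STAT5A was 0.105 with the replicate block. In the fits without 1 library it was 0.00406 to 0.180, lowest without SCML4 replicate 1. Positive differences were found in 5 of 9 members, against 51.7% of all genes. The median difference of the members was 0.07 in log2, and that of all genes was 0.01.

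Promoter sequences were searched for the letters that STAT dimers prefer, TTCNNNGAA, which read alike on both strands. RefSeq windows on GRCh38.p14, reaching 250 bases before to 50 bases after an annotated start, were available for all 9 members. In 17 windows of the members the letters were found 0 times, where 7.66% of all 35116 windows hold them. That says only that these letters are not in these windows. The SOCS3 windows do not hold the upstream end of the gene, at chr17:78360077 in the annotation that gave the exonic lengths. Nor does the STAT5B window hold the upstream end of that gene, at chr17:42276707. Whether the letters occur around these ends was not tested. CISH, a SOCS-family gene known as a STAT5 target, held them 4 times in its window, and 7 of all windows held them 4 times or more. The windows of SOCS4 and SOCS6 held them 0 times, and SOCS2, SOCS5 and SOCS7 had no window. CISH is shown for the arrangement of the motif. The bases are from chr3:50611873-50612024 on the minus strand, and each motif is in capitals.
CISH: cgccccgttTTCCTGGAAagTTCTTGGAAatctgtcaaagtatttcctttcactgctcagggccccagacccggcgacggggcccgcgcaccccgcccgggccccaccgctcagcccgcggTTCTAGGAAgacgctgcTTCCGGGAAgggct
CISH stood at 7.28, 7.55 and 6.37 CPM in SCML4 libraries, against 6.75, 8.25 and 9.09 CPM in EV libraries. Its groups overlapped, and the log2 difference was -0.15. Its adjusted p by limma-trend was 0.920.

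The rest of the pathway was described from lists of 112 further genes, of which 76 were above the filter and 0 passed after adjustment. At an unadjusted p under 0.05 there were 4 of 76, against 5.09% of all genes, and the groups did not overlap in 11 of 76, against 11.3%. Among the other STATs, 0 had an unadjusted p under 0.05. STAT6, the interleukin-4 factor, stood at 134 ± 4.52 CPM in SCML4 and 133 ± 22.5 CPM in EV, and STAT2, which acts in type I interferon signalling, at 65.4 ± 7.98 CPM in SCML4 and 64.7 ± 0.862 CPM in EV. Of the other SOCS genes and CISH, 3 differences were positive and 3 negative. SOCS4 and SOCS7 were the most abundant of them, SOCS4 at 252 CPM in SCML4 and 268 CPM in EV.

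Inhibitors and phosphatases of the pathway gave 6 positive and 7 negative differences among 13 genes. PTPN6, the SHP-1 phosphatase that acts on JAKs, stood at 60.9 ± 5.24 CPM in SCML4 and 51.4 ± 9.63 CPM in EV, with overlapping groups. Its EV libraries stood at 40.7, 59.3 and 54.2 CPM, EV replicate 1 being lowest. PTPRC, which encodes CD45, had a log2 difference of -0.16. It stood at 310, 356 and 344 CPM in SCML4 libraries, against 426, 355 and 351 CPM in EV libraries, EV replicate 1 being highest. CBL, a ubiquitin ligase of activated receptors, stood at 288 ± 17.2 CPM in SCML4 and 316 ± 14.0 CPM in EV, without overlap. Its adjusted p by limma-trend was 0.905.

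Adaptors and partners of STATs gave 4 positive and 6 negative differences among 10 genes. Of these genes 2, GAB2 and NMI, had an unadjusted p under 0.05, against 5.09% of all genes. GAB2, a docking adaptor downstream of cytokine receptors, had 16.4, 18.6 and 20.8 CPM in SCML4 libraries, against 12.9, 12.5 and 10.6 CPM in EV libraries. All SCML4 libraries lay above all EV libraries. The log2 difference was 0.61, and its p by limma-trend was 0.00153 unadjusted and 0.834 adjusted, so it did not pass. NMI, an interactor of STATs, stood at 30.3 ± 1.16 CPM in SCML4 and 34.7 ± 1.82 CPM in EV, also without overlap. STAM, an adaptor that binds JAKs, had a log2 difference of 0.16.

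Receptor chains that use JAKs divided evenly, with 9 positive and 8 negative differences among 17 tested of 28 listed. IL2RG, the common gamma chain that JAK3 binds, was the most abundant chain beside IFNAR1. It stood at 90.5, 105 and 111 CPM in SCML4 libraries, against 73.9, 100 and 94.3 CPM in EV libraries, with overlap. IL4R, the interleukin-4 receptor, stood at 21.7 ± 1.84 CPM in SCML4 and 17.6 ± 2.69 CPM in EV, and IFNGR1, an interferon gamma receptor chain, at 43.8 ± 3.19 CPM in SCML4 and 48.8 ± 1.51 CPM in EV. Neither passed, the adjusted p by limma-trend being 0.905 for both. EV replicate 1 was the lowest library for IL4R, at 14.5 CPM.

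Genes known as STAT targets gave 15 positive and 8 negative differences among 23 tested of 30 listed, with a median of 0.09 in log2. Of all genes tested, 51.7% had positive differences, and the median was 0.01. None of the targets passed after adjustment, and 2 of 23 had an unadjusted p under 0.05, against 5.09% of all genes. Whether the list as a whole differed from all genes was not tested. BCL2L1, which encodes the survival protein BCL-XL, stood at 97.0, 101 and 103 CPM in SCML4 libraries, against 74.4, 87.8 and 94.3 CPM in EV libraries, the groups being apart by a narrow gap. CCND2, a G1 cyclin, had 38, 44 and 34 reads in SCML4 libraries and 32, 22 and 18 reads in EV libraries, a log2 difference of 0.64. CDKN1A, an inhibitor of cyclin-dependent kinases, had 10, 12 and 12 reads in SCML4 libraries and 19, 20 and 11 reads in EV libraries, with overlap, and a log2 difference of -0.42. The abundant targets MYC and CCND3 had differences of -0.09 and 0.20.

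**Figure D5:**
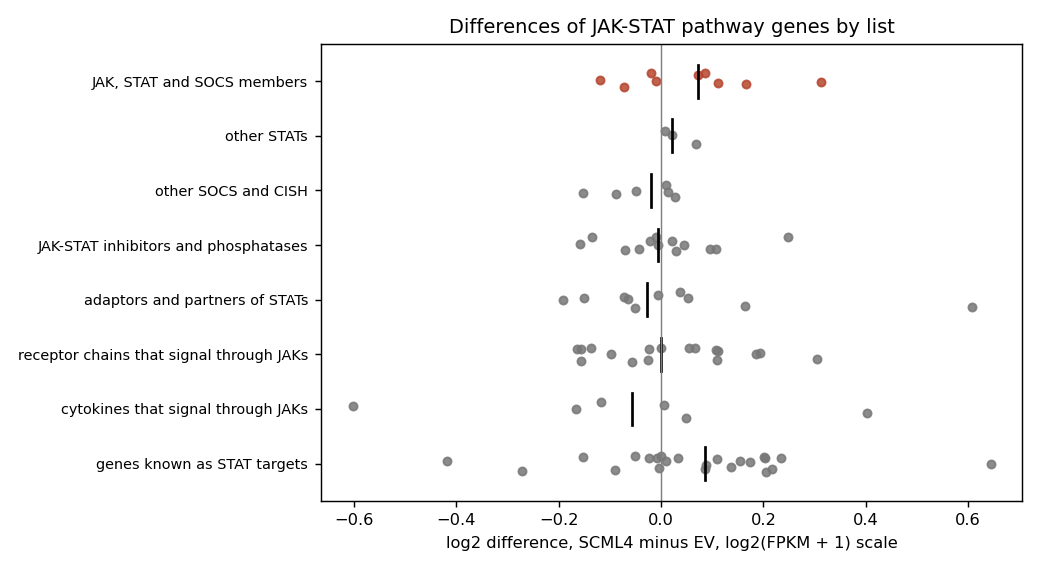
Log2 difference, SCML4 minus EV, of each tested gene (points) and the median of each list (bars), with the 9 members on top. The medians lie between -0.06 and 0.09, GAB2 at 0.61 and CCND2 at 0.64 lie farthest to the right, and LIF at -0.60, with 0, 3 and 11 reads in SCML4 libraries and 6, 6 and 2 reads in EV libraries and an implied length of 92 bases, lies farthest to the left although the ratio of its mean CPM, SCML4 over EV, was 1.01.

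Genes whose levels followed those of a member most closely over the 6 libraries were picked from 11407 genes with at least 50 reads on average. Likeness was the root mean square difference of log2(CPM + 1), each gene centred on its own mean. SAE1 was nearest to TYK2, at 0.0087, and DUSP1 nearest to STAT3, at 0.014. DUSP1, a phosphatase of MAP kinases, stood at 17.4, 18.6 and 18.0 CPM in SCML4 libraries, against 15.3, 16.2 and 16.0 CPM in EV libraries, without overlap. PSMD12 was nearest to JAK3 (0.017), BLCAP to JAK1 (0.019), PEX13 to JAK2 (0.025) and BCL10 to STAT5B (0.026). STAT5A had no neighbour as close: LINC02609 was nearest at 0.042, followed by TNFAIP3, an inhibitor of NF-κB signalling, at 0.057. TNFAIP3 had 96.9, 117 and 132 CPM in SCML4 libraries, against 104, 92.4 and 91.1 CPM in EV libraries, so SCML4 replicates 2 and 3 were highest here too. These genes were picked for their likeness to a member, so a shared order of libraries or lack of overlap follows from the choice. All these values share the same 6 libraries and their depth and GC content, and they are given as a description.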

How the data were processed

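The authors deposited a single table whose 6 library columns hold FPKM, per the file headers, that is, reads divided by library size and gene length. FastQC, STAR, SAMtools and the build hg19 are named without versions, per the submitters' processing notes, and RNA was extracted with TRIzol and made into libraries with a SMARTer kit, per the labels' protocols. No source used here names the counting tool, its strand setting, the annotation or the lengths.

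Since FPKM of a gene are whole multiples of the worth of 1 read, reads and library totals were recovered from these steps, within a tolerance of 0.002 of a read, for all 23897 genes above 0. Where the implied gene length was whole only at a multiple of the recovered reads, the reads were multiplied by it (719 genes, STAT3 by 2 among them). A common divisor that leaves the length whole cannot be seen. Over 13322 genes the implied length had a Spearman correlation of -0.005 with the exonic length in GENCODE 29 (GRCh38). Exonic lengths, GC content, overlaps and shared stretches come from that annotation. No molecular identifiers are described, so counting intervals and the limit of a count of 0 (3 reads, 0.29 to 0.335 CPM) cover counting error only.

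SCML4 was compared with EV by limma-trend (limma 3.58.1, R 4.3.3) on log2(FPKM + 1) for the 15357 genes averaging 0.5 FPKM or more, all 6 libraries and no covariate, with Benjamini-Hochberg adjustment over all of them and a threshold of 0.05. All 9 members passed the filter. Alternatives changed the pseudocount, the filter, the scaling or the prior, added library weights or a replicate block, used the recovered reads (mean of at least 10), corrected for GC content and length, or left out each library. Scripts were tested on simulated data. Sample titles gave the groups and replicate numbers. Within each group no library duplicated another, since replicates differed by a chi-square of 2.60 to 11.1 per gene.

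Named were all members, SCML4, from each pathway list the 3 genes of smallest unadjusted p and the 2 of highest level (given in part, some not reported here), and for members with at least 50 reads the nearest genes by pattern. The members and lists were chosen with earlier results of these data known.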

Additional observations from a re-analysis of the deposited data

How the results depend on the processing

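Over the 20 alternatives, 0 of the 9 members and 0 of the other pathway genes passed the threshold in any. The count of all genes past it was 0 in limma-trend (781 at an unadjusted p under 0.05). It was 7 without a filter on low values, 4 without the intensity trend, 1 with library weights, 1 in limma-voom on recovered reads, 14 in limma-voom with library weights, 1 in limma-trend on log2(CPM + 1) and 3 with GC content and length corrected for, and 0 in every fit without 1 library. The direction of 6 members (JAK3, TYK2, STAT3, STAT5A, STAT5B and SOCS3) was the same in every alternative that held them, SOCS3 being below the filter at a mean FPKM of at least 1. JAK1, at -0.01 in log2, was 0.015 with GC content and length corrected for, and ranged from -0.042 to 0.046 when single libraries were left out, with a positive sign without SCML4 replicate 1 and without EV replicate 2. JAK2, at -0.02, was 0.079 with library weights, 0.071 in limma-voom with library weights and 0.053 with GC content and length corrected for. It ranged from -0.085 to 0.057 when single libraries were left out, with a positive sign without SCML4 replicate 1, SCML4 replicate 3 or EV replicate 1. SOCS1, at 0.11, ranged from -0.083 without EV replicate 1 to 0.28 without EV replicate 3. The cause of these changes was not tested. STAT3 ranged from 0.14 to 0.19, STAT5A from 0.23 to 0.46, STAT5B from 0.01 to 0.14, JAK3 from -0.13 to -0.03, TYK2 from 0.0041 to 0.13 and SOCS3 from -0.34 to -0.07.

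Same-numbered libraries did not deviate together, with correlations of -0.019, -0.047 and -0.010 over genes for replicates 1, 2 and 3. These values give no sign of pairing by number, but they cannot show that same-numbered libraries were made apart. With the replicate block 0 genes passed, and 0 members. Read counts were lowest for SOCS3 and SOCS1, at 24.5 and 34.2 per library on average, where counting alone gives coefficients of variation of 20.2% and 17.1%.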

Other observations

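The cytokines that signal through JAKs had low read counts in these stimulated cells. Of 25 listed genes, 8 had 0 reads in all 6 libraries, among them IL6, IL21 and IFNG. The filter on FPKM passed 6, but it depends on the lengths in the deposited values. LIF, at 0 to 11 reads per library, passed it, and OSM, at 14 to 17, did not, OSM being chosen after its values had been seen. IL2, also chosen after its values had been seen, had 0, 0 and 1 reads in SCML4 libraries and 0 reads in each EV library. A count of 0 allows up to 0.335 CPM in the shallowest library. How far the cells responded to the stimulation was not tested. TSLP, a cytokine of epithelial cells, and IL15, which shares receptor chains with interleukin-2, were the highest by CPM. On the scale per own exonic length TSLP also led, at a mean of 3.27 over all libraries, followed by IL23A at 1.53. IL15 stood at 0.633 on that scale, below IL4 and OSM as well. TSLP stood at 14.0 ± 2.24 CPM in SCML4 and 13.9 ± 2.32 CPM in EV (SD, n = 3 each). IL15 had 7.72, 3.58 and 6.48 CPM in SCML4 libraries and 5.71, 3.90 and 2.48 CPM in EV libraries, with overlap.

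The receptor chains were uneven in the same way. The following were chosen after their values had been seen. IL2RA, the inducible alpha chain of the interleukin-2 receptor, had 0, 2 and 1 reads in SCML4 libraries and 1, 0 and 1 reads in EV libraries. IL2RB, its beta chain, had 13, 27 and 25 reads in SCML4 libraries and 10, 25 and 24 reads in EV libraries. IL7R, the interleukin-7 receptor, averaged 40.8 CPM in SCML4 and 40.4 CPM in EV. IL6R had 0 reads in all SCML4 libraries and 1, 1 and 0 in EV libraries, while its partner chain IL6ST, the gp130 receptor, averaged 49.7 CPM in SCML4 and 53.6 CPM in EV.

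STAT4, the interleukin-12 factor, fell below the filter and was also chosen after its values had been seen. It had 25, 37 and 27 reads in SCML4 libraries and 35, 35 and 44 reads in EV libraries. In CPM the highest SCML4 library stood at 3.58 and the lowest EV library at 3.63, so the groups were apart by less than the worth of 1 read.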
